A study of Mus musculus with 4 samples.

Results

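H3K36me3, the trimethylated form of lysine 36 of histone H3, was examined around 4 short muscle genes, Acta1, Actc1, Des and Ckm, in cultured mouse myocytes. The members were enriched regions (islands) of ChIP-seq that overlapped 4 windows fixed by position on mouse build mm9, each drawn to take in a gene with its flanks. No mm9 gene model was used here, so whether and where each gene lies inside its window was not checked. These were chromosome 8 from 126408000 to 126426000 for Acta1, chromosome 2 from 113880000 to 113900000 for Actc1, chromosome 1 from 75350000 to 75372000 for Des and chromosome 7 from 19990000 to 20014000 for Ckm. Of the islands deposited, 7 of 58326 in wild-type cells and 8 of 69798 in mutant cells overlapped them. The windows were set by gene and not by signal, though with earlier results of these data known.

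The study compared wild-type myocytes with myocytes in which an enhancer that serves H19 and Igf2 in muscle was deleted, with 1 H3K36me3 library for each genotype. Both cultures came from FVB mice, from skeletal muscle taken on postnatal day 4, were grown for 5 to 10 passages, and were harvested 24 hours after growth factors were withdrawn to start differentiation. The labels do not name the animals behind each culture, and 1 library of each genotype gives no replicate spread, so values are set side by side and no p-value is given. The mean depth, solved from the scores, was 2.82 reads per 200 bp step in wild-type cells and 3.11 in mutant cells. In ChIP of a whole culture, fewer marked cells and a weaker mark in each cell cannot be told apart.

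H3K36me3 is placed by SETD2, a methyltransferase that travels with elongating RNA polymerase II, so the mark lies along transcribed gene bodies and usually rises past the start of a gene. Acta1 encodes skeletal muscle alpha-actin, the actin of adult thin filaments, and Actc1 encodes cardiac alpha-actin, its close relative, which developing skeletal muscle also makes. Des encodes desmin, the intermediate filament protein that ties neighbouring myofibrils together, and Ckm encodes the muscle form of creatine kinase, which regenerates ATP from phosphocreatine. All 4 are textbook products of the muscle differentiation programme. No RNA was measured here, so the mark is given as a mark and not as a level of expression.

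The starts of the 4 genes are shown first, because they set the actin pair beside the other genes. Each run is the 300 bases from 250 before to 50 past the RefSeq start, 5′ to 3′ along the gene, from the RefSeq table of build GRCm38.p6, in which all 4 members were found. Des and Ckm lie on its plus strand and Acta1 and Actc1 on its minus strand. Capitals mark each match to the E-box CANNTG (the motif that myogenic basic helix-loop-helix factors recognise), to the CArG box (the motif that serum response factor recognises) and to TATAAA or TATATA, searched on both strands.
Acta1: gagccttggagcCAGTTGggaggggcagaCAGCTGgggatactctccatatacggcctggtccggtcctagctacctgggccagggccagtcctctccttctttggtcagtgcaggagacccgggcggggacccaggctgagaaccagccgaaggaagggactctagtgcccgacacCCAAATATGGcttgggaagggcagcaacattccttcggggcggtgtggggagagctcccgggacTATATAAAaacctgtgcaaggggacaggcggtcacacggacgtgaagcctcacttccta
Actc1: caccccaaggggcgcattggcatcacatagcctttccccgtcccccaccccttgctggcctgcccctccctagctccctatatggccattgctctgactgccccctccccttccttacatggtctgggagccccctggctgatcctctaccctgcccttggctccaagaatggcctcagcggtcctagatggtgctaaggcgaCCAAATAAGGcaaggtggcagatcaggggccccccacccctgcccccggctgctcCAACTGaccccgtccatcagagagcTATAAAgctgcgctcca
Des: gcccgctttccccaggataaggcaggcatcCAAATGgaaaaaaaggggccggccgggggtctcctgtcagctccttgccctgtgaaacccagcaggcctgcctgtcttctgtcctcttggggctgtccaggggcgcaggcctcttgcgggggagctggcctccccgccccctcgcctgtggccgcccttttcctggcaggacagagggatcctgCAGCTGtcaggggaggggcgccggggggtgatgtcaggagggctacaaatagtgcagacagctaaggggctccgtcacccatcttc
Ckm: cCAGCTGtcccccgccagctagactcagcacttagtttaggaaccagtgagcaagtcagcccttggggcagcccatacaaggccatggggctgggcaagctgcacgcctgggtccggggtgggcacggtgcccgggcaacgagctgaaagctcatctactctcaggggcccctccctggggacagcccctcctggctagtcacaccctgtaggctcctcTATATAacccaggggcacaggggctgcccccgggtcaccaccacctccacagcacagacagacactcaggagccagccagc

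The actin genes alone among the 4 held a CArG box in this stretch, CCAAATATGG beginning 73 bases before the start of Acta1 and CCAAATAAGG beginning 47 bases before that of Actc1. A CArG box was present in 1.63% of the 32851 promoters of the table. E-boxes were present in all 4, with 2 matches in Acta1, 1 in Actc1, 2 in Des and 1 in Ckm, and in 72.3% of all promoters. CAGCTG was the E-box of Acta1 at 221 bases, of Des at 36 bases and of Ckm at 249 bases before the start. TATAAA (13.6% of promoters) was found in both actin genes and TATATA (5.67%) in Acta1, where it overlaps TATAAA, and in Ckm. In Actc1 the TATAAA and the single E-box begin 33 and 8 bases past the RefSeq start, and in Acta1 TATAAA begins 7 bases before it. All distances are from the RefSeq start, and where transcription begins in these cells was not measured. No match to the MEF2 site was found in these 4 stretches, and 3.19% of promoters had one. These matches describe letters in the reference sequence and not binding in these cells.

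Acta1 and Des carried the mark over the centre of their windows in both genotypes, Ckm had a long island over the centre in wild-type cells and a short one beside it in mutant cells, and the centre of the Actc1 window held no island in either. Cover, the part of a window lying within islands, was 9.2 kb in wild-type cells and 10.2 kb in mutant cells for Acta1, or 51.1% and 56.7% of its 18 kb. Des was covered over 7.8 kb and 6.8 kb (35.5% and 30.9% of 22 kb). Ckm was covered over 16 kb and 6 kb (66.7% and 25% of 24 kb). In the Actc1 window cover was 0 kb in wild-type cells and 2.8 kb in mutant cells (14% of 20 kb). Mutant to wild-type ratios were thus 1.11 for Acta1, 0.872 for Des and 0.375 for Ckm, with none for Actc1, where the wild-type window is empty. Together the windows held 33 kb of islands in wild-type cells and 25.8 kb in mutant cells, and the difference lay mostly at Ckm.

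A 2-fold difference in cover was seen in 2 of the 4 windows, Ckm (lower in the mutant) and Actc1 (higher). Across the genome 39.9% of 20 kb bins with an island in either list differed by as much, so the number of windows that differed was close to the background. By direction, 21.1% of 24 kb bins were covered in the mutant to 50% or less of the wild-type length, as Ckm was. In the other direction, 18.7% of 20 kb bins had at most that share in the wild type, as Actc1 had. The level of cover at Ckm in the wild type was high, since 13.1% of 24 kb bins with an island reached it, and its level in the mutant was reached by 46.2%. Acta1 was also well covered, with 27.1% of 18 kb bins reaching it in wild-type cells and 22.8% in mutant cells. Des lay nearer the middle, with 37.7% and 41.3% of 22 kb bins.

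**Figure D1:**
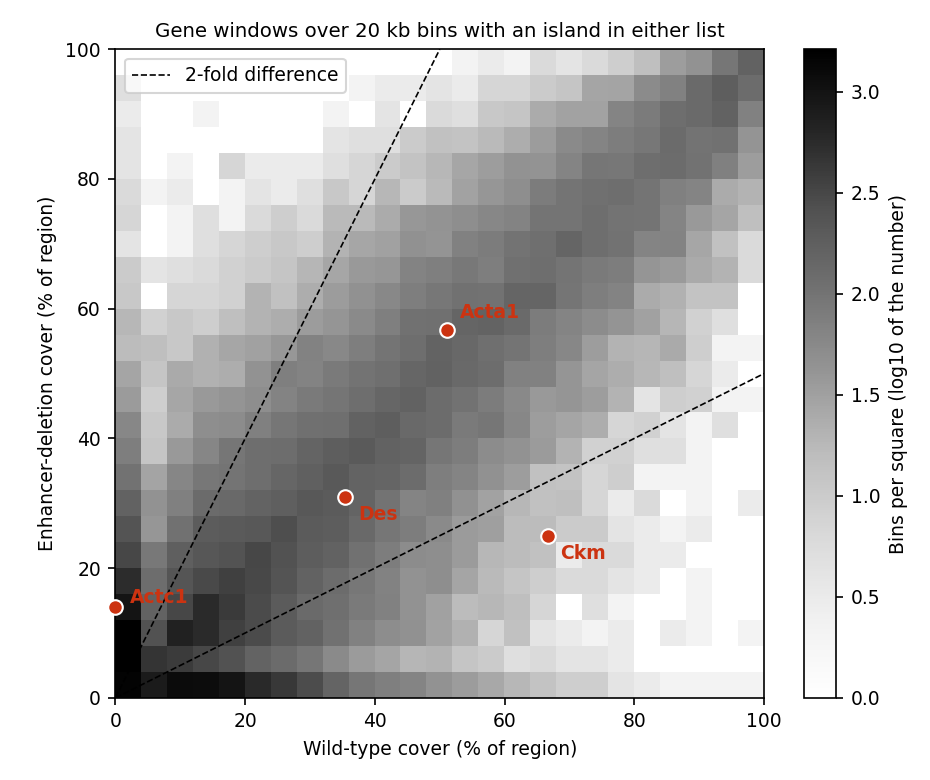
Cover of the 4 gene windows (red points) in the wild type (x axis, % of the region) and the mutant (y axis, % of the region), over the 20 kb bins with an island in either list (grey squares, log10 of the number of bins); the windows themselves are 18 to 24 kb long. Acta1 and Des lie between the dashed lines of a 2-fold difference, Ckm (66.7% and 25%) below them and Actc1 (0% and 14%) above.

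Acta1, the skeletal actin gene, had 3 islands in each genotype, and each wild-type island had 1 counterpart in the mutant. The island over the window centre ran from 126415601 to 126418400 in the wild type (2.8 kb) and from 126415201 to 126418400 in the mutant (3.2 kb). Its right end, the 5′ side of a gene on the minus strand, was the same to the 200 bp step of the lists. A second pair lay to the left, from 126410601 to 126412000 in wild-type cells and to 126413000 in mutant cells. The third pair crossed the right edge of the window, from 126421001 to 126430800 and from 126421401 to 126431200, 9.8 kb in both. The windows shared 8.8 kb of cover, 83.0% of the length covered in either genotype.

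Des, the desmin gene, had a single island in each genotype and the simplest outline of the 4. It ran from 75357201 to 75365000 in the wild type (7.8 kb) and from 75358201 to 75365000 in the mutant (6.8 kb), so that all of the mutant island lay within the wild-type one. The 1 kb missing in the mutant was at the left end, the 5′ side of a gene on the plus strand. The island stood alone: the next one began at 75383001 in wild-type cells and 75383401 in mutant cells, and the one before ended 49.6 kb and 48.4 kb ahead of the window centre.

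Ckm, the creatine kinase gene, had an island of 8.8 kb over its window centre in the wild type, from 19996401 to 20005200. The nearest island in the mutant, 2.4 kb from 19998001 to 20000400, ended 1.6 kb before the centre, which held no island there. The mutant island lay wholly inside the wild-type one, which was covered to 27.3% in the mutant. In the wild type 2 more islands followed after gaps of 800 bp each, from 20006001 to 20009000 (3 kb) and from 20009801 to 20040800 (31 kb). In the mutant the next island began at 20010401 and ended at 20028800 (18.4 kb). Between them the mutant had a stretch of 10 kb with no island, from 20000401 to 20010400, of which 8.4 kb (84%) was covered in the wild type. On a fixed grid of 10 kb bins, 1.48% of the 12039 bins covered to 80% or more in the wild type had no island in the mutant, and 0.958% of 11279 bins the other way; the stretch at Ckm was chosen as a mutant gap by its own bounds, so its lack of mutant islands is not a finding. By length alone such a gap was common, since 30.5% of the gaps between mutant islands were as long.

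The Actc1 window, of the cardiac actin gene, held no island in wild-type cells and 2 weak ones left of the centre in mutant cells. These ran from 113879401 to 113881400, across the left edge, and from 113884001 to 113885400. Their deposited scores of 32.9 and 32.2 lay at percentiles 25.7 and 24.4 of the mutant list, not far above its lowest score of 22.6; the lowest in the wild-type list was 30.3. The window centre lay in an island-free stretch of 28.8 kb in the wild type (113877601 to 113906400) and 29.2 kb in the mutant (113885401 to 113914600). Stretches that long made up 18.9% of the gaps between wild-type islands and 15.3% of those between mutant islands, and 68.9% of 20 kb bins of the genome held no island in either list taken by itself. Just outside the window, 2.4 kb from its left edge, lay a wild-type island from 113874801 to 113877600 (2.8 kb, with a deposited score of 2.85 per 200 bp window, percentile 27.4 of its list). In the mutant an island from 113872801 to 113878400 ended 1.6 kb from that edge and was longer and denser (5.6 kb, 7.95 per 200 bp window, percentile 93.8). Whether either lies over Actc1 was not analysed here. A region without an island is one in which no enrichment passed the authors' calling at this depth, and is not shown to lack the mark. The windows of the actin pair thus differed in both genotypes, with an island over the centre for Acta1 and none for Actc1. With islands just past the edge in both genotypes, the Actc1 window may miss part or all of the gene. The contrast is therefore one between windows, not between the 2 actin genes, and does not show that the body of Actc1 is unmarked.

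**Figure D2:**
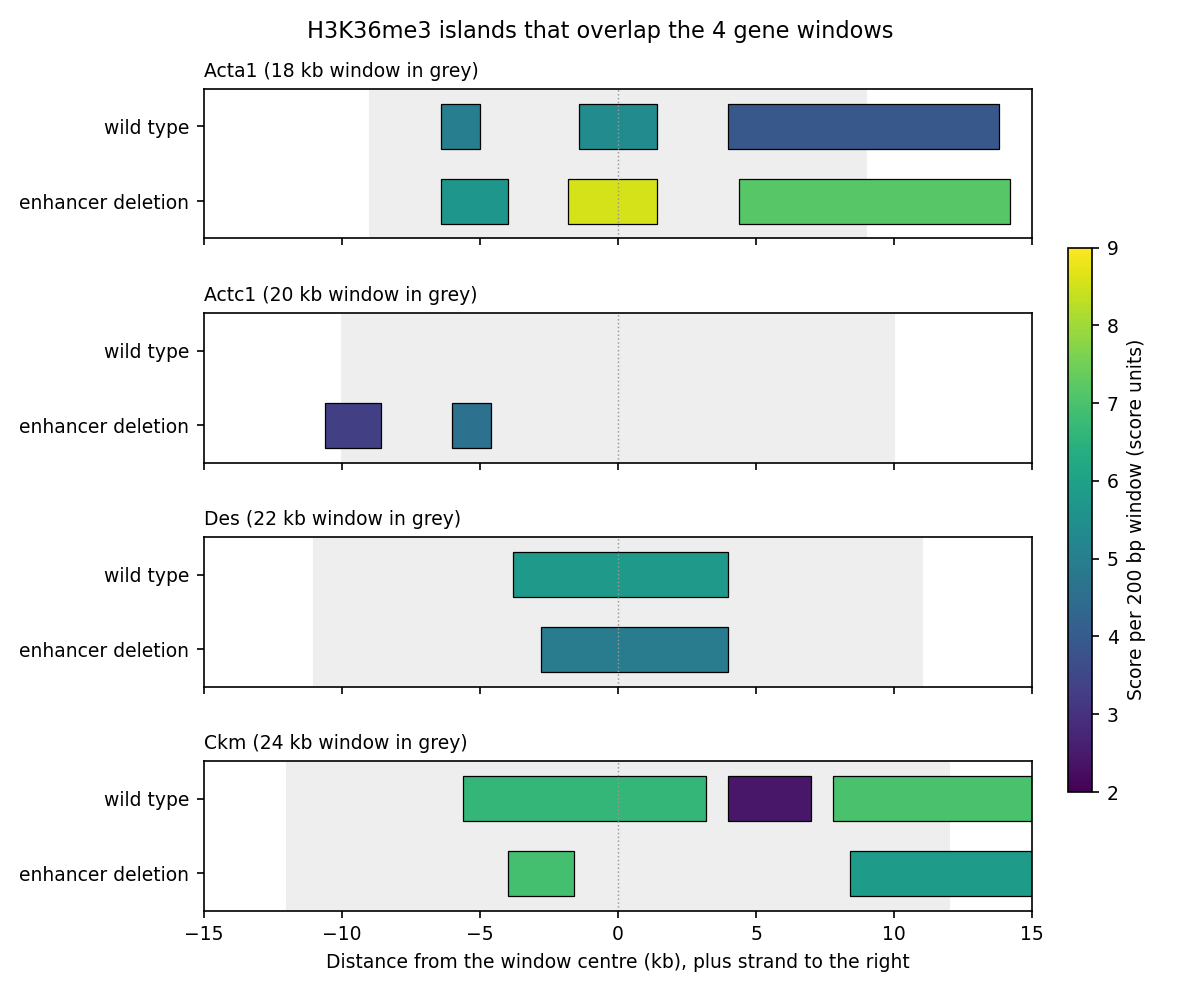
Islands that overlap each gene window (grey), drawn by distance from the window centre in kb, for the wild type (upper row) and the mutant (lower row), and coloured by deposited score per 200 bp window. The outlines match closely at Acta1 and Des, the 8.8 kb wild-type island at Ckm faces one of 2.4 kb, and the centre of the Actc1 window is empty in both. Islands just outside a window are not drawn, and the last island of Ckm runs past the right edge of the plot.

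How dense the mark was inside an island was read from the authors' deposited score divided by the number of 200 bp windows, ranked within its own list because scores grow with depth. The median over all islands was 3.62 in wild-type cells and 3.95 in mutant cells. The central island is the one over the window centre or, failing that, nearest to it. In the wild type the central islands scored 6.63 per window at Ckm (percentile 91.1), 5.79 at Des (percentile 85.8) and 5.36 at Acta1 (percentile 81.8). In the mutant the order was another one, with 8.55 at Acta1 (percentile 95.4), 6.90 at Ckm (percentile 89.7) and 4.90 at Des (percentile 69.4). The central islands of these 3 windows thus stood above the median of both lists, under a choice of island made after seeing the values. By longest overlap, the Acta1 islands were at percentiles 57.2 (wild type) and 90.8 (mutant), and the mutant Ckm island at 81.8. The 2 mutant islands at Actc1 scored 3.29 and 4.60 (percentiles 32.7 and 64.0).

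To set the genotypes beside each other, each score per window was turned into the number of reads that would give it if spread evenly, over the library's mean depth. The intervals (95%, exact Poisson) treat that number as counted reads and so cover counting error only. The Acta1 centre stood at 2.91 times the mean (2.40 to 3.49) in wild-type cells and 3.64 times (3.13 to 4.21) in mutant cells, and these intervals overlap. The Acta1 island at the right edge stood at 2.41 times (2.16 to 2.68) and 3.29 times (3.01 to 3.59), with intervals that do not overlap. Des stood at 3.04 times (2.73 to 3.39) and 2.65 times (2.35 to 2.98), and the central Ckm islands at 3.29 times (2.98 to 3.62) and 3.23 times (2.68 to 3.86). At Ckm the mutant island was shorter, with a density whose interval overlapped that of the wild-type island. These 2 densities are over unlike stretches, since 27.3% of the wild-type island was covered in the mutant. Density over the same bases was not measured, so an unchanged density at Ckm is not shown. Mutant islands were also shorter and more numerous across the genome, with a median length of 3000 bp against 3800 bp, and covered 297.8 Mb against 308.1 Mb.

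Read against all 31680 pairs of islands that are each other's only counterpart, these 4 ratios lay within the range of most pairs. Over those pairs the mutant to wild-type ratio of this density had a median of 1.01, with 90% of pairs between 0.684 and 1.48. It was 1.25 at the centre of Acta1 (percentile 83.8), 1.36 at its right edge (percentile 90.9), 0.872 at Des (percentile 24.9) and 0.981 at Ckm (percentile 45.0). The Ckm ratio sets an island of 2.4 kb against one of 8.8 kb. The pair at the right edge of Acta1 thus had intervals that were apart and a ratio that was not rare among pairs.

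**Figure D3:**
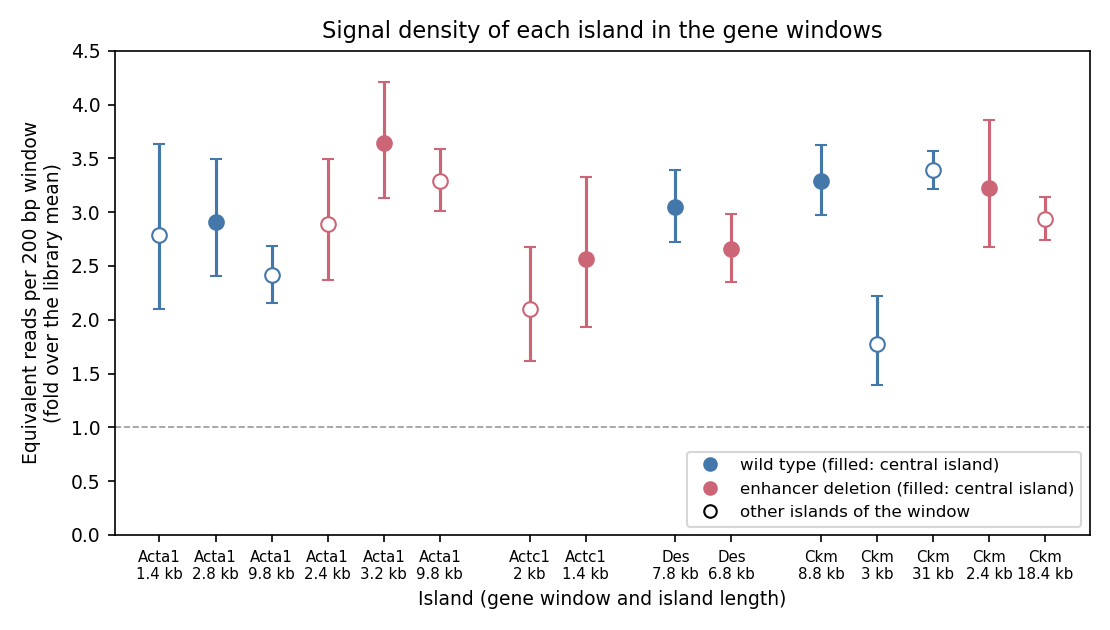
Equivalent reads per 200 bp window, as fold over the library mean (y axis), for each island of the gene windows (x axis, with its length), wild type in blue and mutant in red; filled points are central islands, the bars are 95% Poisson intervals, and the dashed line is the library mean. The intervals of the central Ckm islands overlap between genotypes (3.29 over 8.8 kb and 3.23 over 2.4 kb), as do those of Acta1 and Des. Those of the 9.8 kb islands of Acta1 do not.

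The bounds of the central islands moved by at most 1 kb at Acta1 and Des and by up to 4.8 kb at Ckm. Of the 5 pairs in the windows with 1 counterpart each, 3 had a start or an end that moved by 1 kb or more, where 50.2% of all pairs had, so a shift of that size was common. The median shift over all pairs was 400 bp at the start and 400 bp at the end. At the centre of Acta1 the start moved by 400 bp and at Des by 1000 bp, and 55.3% and 29.7% of pairs moved as far. At Ckm the start moved by 1.6 kb (17.1% of pairs moved as far) and the end by 4.8 kb, which 0.941% of all pairs matched or passed. Islands lost, split or merged in the other list form no such pair, so these shares leave them out. An end can move inward by 4.8 kb only in an island longer than that, and the median wild-type island was 3800 bp long. Shifts in both directions were counted. Among the 9876 pairs whose wild-type island was 5 kb or more, 2.30% (227) had an end shift as large and 25.9% a start shift as large. With islands within 2 kb joined, the island at the right edge of Acta1 ended 27 kb further on in the mutant, so its bounds depend on the joining. Under 50% of the central wild-type Ckm island was covered in the mutant, as was true of 16.9% of wild-type islands of 5 kb or more. Of those also in the top 10% of the list by score per window, 1.91% (48 of 2509) were. Both classes are cut on wild-type values, in which Ckm is high, so these shares do not show that its difference is rare. For mutant islands set against the wild-type list the shares were 8.94% and 1.68%. Of the 4 wild-type islands of 5 kb or more in these windows, the central Ckm island was the 1 below 50%. The others were covered to 95.9% (Acta1), 87.2% (Des) and 81.9% (Ckm, right edge).

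Within 100 kb, the surroundings of each window differed between genotypes in the same direction as the window itself; over 1 Mb this still held for Ckm, Des and Actc1 but not for Acta1. Within 100 kb around the centre, and leaving the window itself out, cover at Ckm was 58.7% in wild-type cells and 40.3% in mutant cells, a ratio of 0.686. Much of that difference is the rest of the island that crosses the right window edge. It was 31 kb long with 4.2 kb inside the window in the wild type, and 18.4 kb long with 3.6 kb inside in the mutant. Over 1 Mb, again outside the window, the Ckm ratio was 0.854 (31.5% and 26.9%), while chromosome 7 as a whole had a ratio of 0.987. Of the 10 bins of 100 kb around Ckm, which include the window itself, 8 were covered less in the mutant and 2 more. Genome-wide 53.8% of bins with an island were covered less. Whether the shorter Ckm island and the lower cover of its surroundings are linked was not tested. At Des the ratio outside the window was 0.870 within 100 kb and 0.928 within 1 Mb, against 1.03 on chromosome 1, and of the 5 bins with an island 3 were covered less and 2 more.

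The surroundings of Actc1 were covered more in the mutant, with a ratio of 1.43 within 100 kb outside the window (27% and 38.5%) and 1.29 within 1 Mb, against 0.994 on chromosome 2. Of the 7 bins of 100 kb that held an island, 6 were covered more in the mutant and 0 less, and genome-wide 44.3% of bins with an island were covered more. These bins include the window itself. The bin left of the centre held 10.4 kb in wild-type cells and 10.6 kb in mutant cells. The window's own islands gave 2.8 kb of that mutant cover, so without them the bin was covered less in the mutant. Besides the denser mutant island at the left edge, the right side held a mutant island of 5.8 kb from 113914601 to 113920400, of low density (percentile 1.64), where the wild type had islands of 2.2 kb and 1 kb. Past these, an island ran from 113922801 to 113936400 (13.6 kb) in wild-type cells and from 113921201 to 113956600 (35.4 kb) in mutant cells. At Acta1 the ratio outside the window was 1.17 within 100 kb and 0.939 within 1 Mb, against 0.962 on chromosome 8, and the 10 bins split into 6 covered more and 4 covered less.

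**Figure D4:**
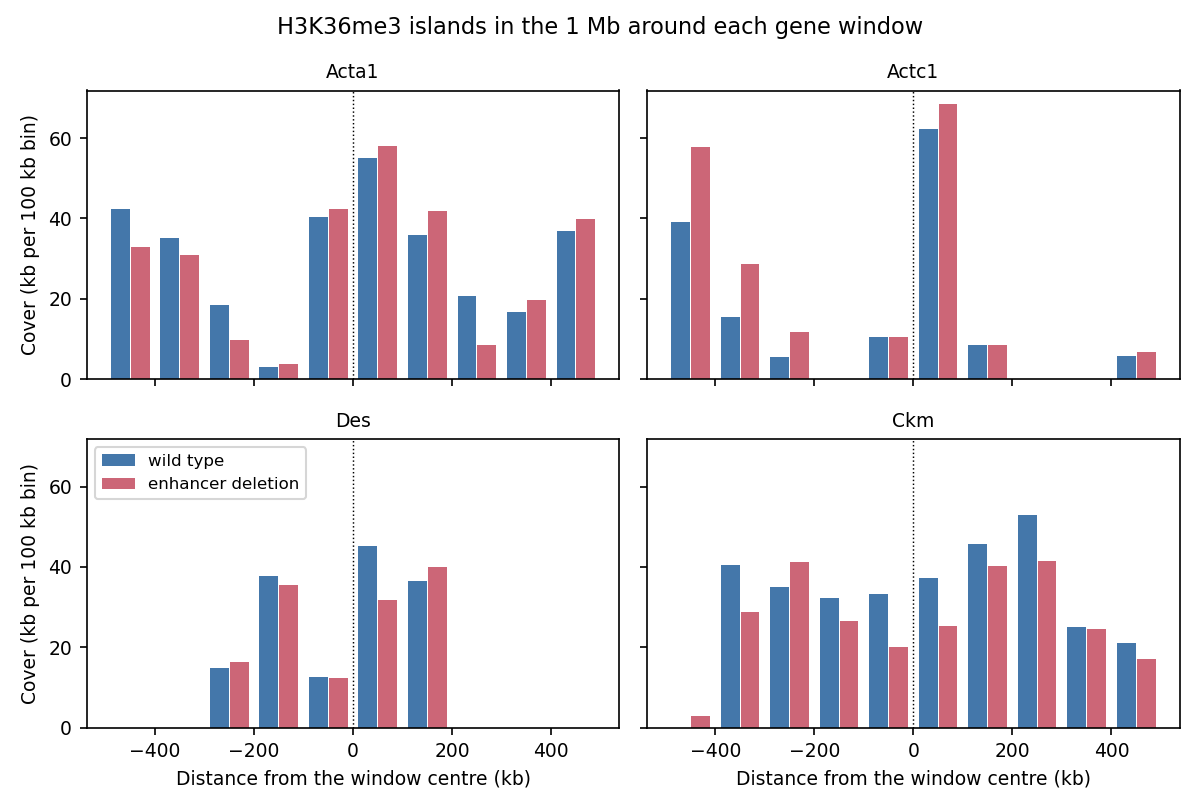
Length covered by islands (y axis, kb per bin of 100 kb) in the 10 bins around each gene window (x axis, distance from the window centre in kb), wild type in blue and mutant in red. The mutant is lower in 8 of 10 bins around Ckm and higher in 6 of the 7 bins with an island around Actc1, where it is lower in 0. The bins next to the centre include the window itself.

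Which of these islands lie over neighbouring genes on mm9 was not analysed here, since the gene table used is of another build. In its order the nearest coding genes are Ccsap and Nup133 on the sides of Acta1, Gjd2 and Aqr of Actc1, Dnpep and Speg of Des, and Klc3 and Mark4 of Ckm. Islands at a window edge may belong to one of these. When the main island was taken as the one with the longest overlap with the window, edge islands were picked at Acta1 in both lists (percentiles 57.2 and 90.8 by score per window) and at Ckm in the mutant (percentile 81.8), so the central islands are given above. The muscle identity of the cultures was not tested here. Only the windows of these 4 genes were read, with no non-muscle gene beside them. An island lay over the window centre in both genotypes at Acta1 and Des, in wild-type cells only at Ckm, and in neither at Actc1. How often other regions of the genome hold an island at their centre was not computed. Coding exons of Acta1 and Actc1 are alike, and the treatment of reads with several matches was not stated in the labels.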

How the data were processed

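The authors deposited 1 list of islands for each of the 2 H3K36me3 libraries, with an island score for each. The submitters' processing notes name Bowtie 1.0.0, a short-read aligner, SICER 1.1, a caller of broad regions, and mm9; the names of the deposited lists give 200 bp windows and 600 bp gaps. Use of the input libraries in calling and removal of duplicate reads are not given in the sources used here, and the input libraries were not analysed here. Depth was solved from scores of islands 1 window long (8 and 14 islands, 6 distinct scores each).

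Cover, bounds, percentiles and density were computed with Python 3.11.15, numpy 2.4.6, pandas 2.3.3 and scipy 1.17.1, drawn with matplotlib 3.10.9, and tested on simulated data. Coordinates count from 1. Genome bins run from each chromosome's first base to its last island. Named were the 4 members and every island overlapping their windows. Members, windows and tests were chosen with earlier results of these data known. The central island, the 1 kb shift, the 10 kb stretch and the 5 kb class were chosen after seeing the values. The top 10% cut within that class was not planned beforehand.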

Additional observations from a re-analysis of the deposited data

How the results depend on the processing

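The direction of each window's cover difference held in the 6 alternatives run for Acta1, Des and Ckm. The Acta1 ratio ran from 1.1 to 1.31, the Des ratio was 0.872 in each, and the Ckm ratio ran from 0.286 (window trimmed by 2 kb at each side) to 0.486. For Ckm, the upper 50% of each list by score gave 54.2% cover in the wild type and a ratio of 0.462, as did 1 score floor for both lists, the median wild-type score (54.2%, 0.462). Counting whole islands, not clipped to the window, gave 42.8 kb and 20.8 kb at Ckm (ratio 0.486) and 14 kb and 15.4 kb at Acta1 (ratio 1.1). Mutant cover at Actc1 fell to 7% with islands of at least 2 kb. It fell to 0% in the upper 50% by score and to 0% with the shared score floor. The difference inside the Actc1 window thus rests on 2 low-scoring islands. Islands just past its left edge are outside this cover, and they differed too, at percentiles 27.4 (wild type) and 93.8 (mutant) by score per window. The share of genome bins with a 2-fold difference was 42.4% in 10 kb bins and 32.8% in 100 kb bins.

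By the rule of longest overlap, the mutant start minus the wild-type start was 0.4 kb at Acta1, and -0.4 kb for the central island. The mutant end minus the wild-type end at Ckm was 23.6 kb by that rule, where different islands are set against each other, -9 kb with islands within 2 kb joined, and -4.8 kb for the central island. At Acta1 the end moved by 0.4 kb by that rule and by 27 kb with islands joined. The choice of central islands was made after seeing the data. No paired analysis was possible because each genotype has 1 library, and for the same reason no replicate could be left out. Depth limits what a missing island shows: scores under 30.3 in wild-type cells and 22.6 in mutant cells were not listed.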
